A study of Homo sapiens with 12 samples.

Results

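The comparison set the 4 PEO-4 libraries against the 4 SKOV-3 libraries, 8 of the 12 libraries of the study, over every gene with enough counts to test, which was 19094 of the 61533 genes in the files. PEO-4 and SKOV-3 are human ovarian adenocarcinoma cell lines that were started from ascites. PEO-4 was labelled an ovarian cystadenocarcinoma and described by the study as high-grade serous. SKOV-3 was labelled a serous cystadenocarcinoma, whereas the study described it as a clear cell carcinoma. Both were labelled WT, with no treatment or engineered change. By the study's account, PEO-4 came from a patient whose disease had become resistant after chemotherapy that included cisplatin, and SKOV-3 resists cisplatin too. The remaining 4 libraries, from the SV40-immortalized ovarian epithelial cells T1074, entered no value below except where stated. Total RNA was sequenced to build a protein database for each line, and the pair of cancer lines also allowed a direct comparison of their transcripts. PEO-4 was grown in RPMI 1640 with added glutamine and SKOV-3 in McCoy's 5A, both with fetal bovine serum and penicillin-streptomycin, so line and medium cannot be told apart. Each library was made from an aliquot of trypsinized cells, with removal of ribosomal RNA, a strand-specific kit and 9 cycles of PCR. The sources do not say whether the 4 replicates were separate cultures, so p-values measure the spread between these libraries, which may be technical.

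Ovarian carcinoma lines differ in how epithelial they are. Epithelial cells are held together by E-cadherin, claudins and desmosomes under regulators such as the grainyhead-like factors, whereas mesenchymal cells carry vimentin, fibronectin and the repressors ZEB1 and SNAI2. Serous carcinomas of the ovary typically carry PAX8, WT1 and the antigen MUC16. A pair of stress programs is read from well-known promoter elements: interferon-stimulated genes from the interferon-stimulated response element, bound by STAT and IRF factors, and the antioxidant genes of NRF2, a factor held in check by KEAP1, from the antioxidant response element.

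Sites of these elements are printed because most members of each gene group lay on the same side, as described further on. The windows ran from 250 bases before to 50 bases after each RefSeq start (GRCh38.p14), and both strands were searched. The interferon letters, GAAA followed by any 2 bases and GAAA, were found in 3.17% of 15328 protein-coding promoters, and in 17 of the 24 promoters available for interferon-stimulated genes. The letters TGACNNNGC were found in 14.3% of all promoters and in 7 of 21 promoters of NRF2 targets. Each line below gives a gene, the position and strand of the stretch and its bases 5′ to 3′ along the gene, with the matched letters or their reverse complement in capitals.
ISG15 (chr1:1013380-1013409, plus strand): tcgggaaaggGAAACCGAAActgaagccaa
IFI44L (chr1:78620274-78620303, plus strand): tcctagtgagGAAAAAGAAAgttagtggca
IFI44L (chr1:78620365-78620394, plus strand): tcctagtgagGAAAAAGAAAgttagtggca
IFIT1 (chr10:89392510-89392539, plus strand): cactttccccTTTCGGTTTCcctaggtttc
IFITM1 (chr11:314024-314053, plus strand): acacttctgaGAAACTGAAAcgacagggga
BST2 (chr19:17405741-17405770, minus strand): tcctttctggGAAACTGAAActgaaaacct
HERC5 (chr4:88457035-88457064, plus strand): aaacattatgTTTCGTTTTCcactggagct
GCLM (chr1:93909446-93909474, minus strand): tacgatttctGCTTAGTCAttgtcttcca
ME1 (chr6:83431170-83431198, minus strand): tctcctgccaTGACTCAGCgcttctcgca
TXNRD1 (chr12:104215670-104215698, plus strand): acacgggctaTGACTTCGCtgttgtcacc
CBR1 (chr21:36069855-36069883, plus strand): tgcgggttctGCAAAGTCAggctagctgg
PGD (chr1:10398853-10398881, plus strand): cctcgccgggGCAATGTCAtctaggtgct
The first 7 lines hold the interferon element and the other 5 the antioxidant element. The stretch of IFI44L occurred 2 times in its promoter with identical bases, and the printed matches of ISG15 and BST2 overlapped further matches. In the promoter of HERC5, 2 other matches that are not printed overlapped each other. A match is a description of the letters, not a sign of binding.

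The depth of the PEO-4 libraries was 38690954 to 47148161 expected counts, and that of SKOV-3 was 47340136 to 55739060. The protein-coding share of these counts was 60.9 to 68.7% in PEO-4 against 73.0 to 78.2% in SKOV-3, and long noncoding RNAs 3.13 to 7.71% against 1.05 to 1.67%, with PEO-4 replicate 1 at the lowest protein-coding and the highest noncoding share. Mitochondrial transcripts took 0.418 to 0.990% of the counts against 0.122 to 0.140% in SKOV-3. The first principal component held 94.0% of the variance and separated the lines. The second, with 1.61%, set PEO-4 replicates 1 and 4 (scores of 31.6 and 22.5) apart from replicates 2 and 3 (-26.7 and -27.4), and SKOV-3 lay between -10.8 and 12.2. The PEO-4 libraries correlated at 0.992 within the first of these pairs, at 0.990 within the second and at 0.985 to 0.988 between them (Pearson's r over genes, which are not replicates). The labels name no batch for this split. Marker genes of leukocytes were near 0 in both lines. PTPRC, the pan-leukocyte antigen, was at 0 in all PEO-4 libraries and at a mean of 0.00928 CPM in SKOV-3, and of 12 such markers only CD68 exceeded 2 CPM in either line.

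Of the 19094 genes tested, 15556 (81.5%) differed between the lines at an adjusted p below 0.05 (edgeR quasi-likelihood test, Benjamini-Hochberg adjustment), so a difference as such was the common state. A total of 7946 genes (41.6%) were higher and 7610 (39.9%) lower in PEO-4. With a fold change of at least 2 as a further condition, 5248 (27.5%) were higher and 4531 (23.7%) lower. For the gene groups below, 41.6% and 39.9% are the background for members called higher and lower. The shares of 27.5% and 23.7% are the background only for members counted as at least 2-fold different. The libraries of the lines did not overlap at 7505 genes (39.3%) above and 7248 (38.0%) below. The median log2 fold change, PEO-4 over SKOV-3, was 0.04, with a middle range of -0.94 to 1.16. Changes of at least 8-fold were called for 1761 genes higher and 1213 lower in PEO-4. SEMA5A, a guidance cue with 99.99 ± 8.09 CPM in PEO-4 and 0.00466 ± 0.00932 in SKOV-3, and ZIC2, a developmental zinc-finger factor with 0.00711 ± 0.0142 and 83.3 ± 12 CPM, were among the 12 protein-coding genes with the largest fitted change in each direction.

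**Figure D1:**
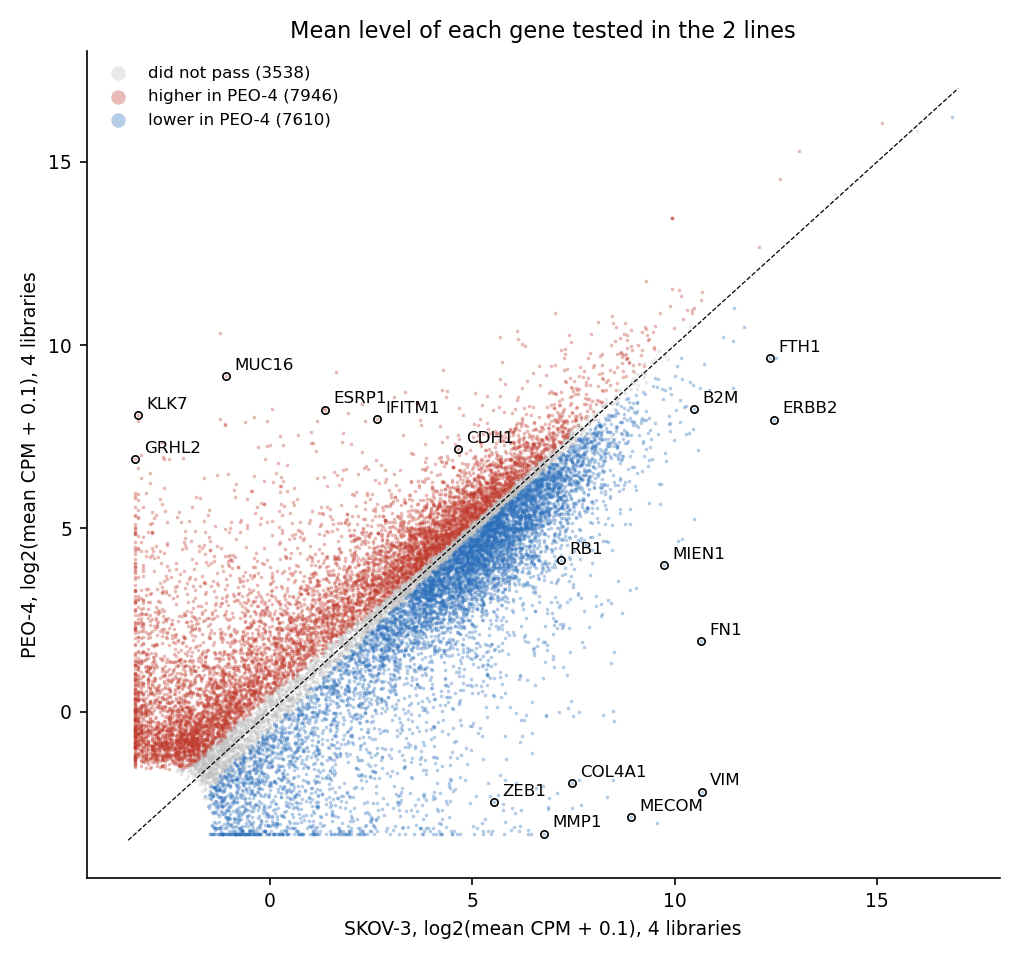
Mean level of each of the 19094 genes tested in SKOV-3 (horizontal) and PEO-4 (vertical), as log2(mean CPM + 0.1) over 4 libraries each, with red for the 7946 genes higher in PEO-4, blue for the 7610 lower and gray for the 3538 that did not pass. The dashed line marks equal levels, and named genes such as GRHL2, KLK7, VIM and MMP1 lie at the edges, near 0 in 1 of the lines.

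Genes that usually define ovarian carcinoma lines differed to unlike degrees between the pair, most of all WT1 among those given here. WT1, a factor of serous carcinomas and mesothelium, was at 156 ± 16.9 CPM (mean ± SD, n = 4) in PEO-4 and 0.903 ± 0.424 in SKOV-3. PAX8, the Müllerian lineage factor, did not pass the test, at 103 ± 10.2 and 88.4 ± 10.1 CPM (log2 fold change 0.21, adjusted p = 0.0657), although it passed when protein-coding genes alone were scaled and tested (adjusted p = 0.00669) and when genes under 1 CPM were removed (adjusted p = 0.0148). BRCA1 and BRCA2, of homologous recombination, were lower in PEO-4 by log2 fold changes of -0.76 and -1.43. ESR1, the estrogen receptor, was slightly higher in PEO-4, at 219 ± 16.7 against 151 ± 20.2 CPM.

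MUC16, which encodes the CA-125 antigen, reached 607, 513, 607 and 545 CPM in PEO-4 and 0.392, 0.443, 0.448 and 0.197 CPM in SKOV-3. MSLN, mesothelin, was at 422 ± 62.4 against 9.96 ± 0.946 CPM, and BCAM, a laminin receptor, at 1050.3 ± 23 against 75 ± 15.2. In the other direction, L1CAM, an adhesion molecule of the immunoglobulin family, was at 0.833 ± 0.198 against 178 ± 30.8 CPM, and SPP1, osteopontin, at 0.0971 ± 0.035 and 118 ± 34.7. SLC34A2, the phosphate transporter NaPi2b, was higher in PEO-4 at 8.17 ± 0.687 against 0.48 ± 0.0954 CPM. The list of ovarian carcinoma antigens was split: 8 of 19 tested members were higher, 7 lower, and its median of 0.29 changed sign when genes under 1 CPM were removed. FOLR1, CD24 and LCN2 were among those that did not pass.

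Lineage factors of the urogenital tract went both ways. ANXA4, an annexin that marks clear cell carcinoma, was 12.5-fold lower in PEO-4 (25.4 ± 4.51 against 317 ± 24.9 CPM). MECOM, the EVI1 locus on 3q that is often gained in ovarian carcinoma, was at most 0.0569 CPM in any PEO-4 library, while the SKOV-3 libraries held 469, 518, 499 and 441 CPM. SOX17, a Müllerian factor, was at 0.765 ± 0.18 and 72.9 ± 8.21 CPM. EMX2, a factor of the urogenital tract, had the reverse pattern at 29.6 ± 2.41 CPM in PEO-4 and 0.0247 ± 0.0193 in SKOV-3. GATA6, a factor of endoderm and ovary, was 7.18-fold lower in PEO-4, and LHX1, of the kidney and Müllerian duct, was at 0 in PEO-4 and 24.7 ± 6.31 CPM in SKOV-3. SOX9, of ducts and gonads, was higher in PEO-4 at 34.1 ± 6.49 against 0.579 ± 0.113 CPM. Of the 17 lineage factors tested, 7 were higher and 8 lower in PEO-4.

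The epithelial program was higher in PEO-4. Of 21 epithelial regulators tested, 18 were higher, 17 of them by at least 2-fold against 27.5% of all genes, with a median log2 fold change of 3.40. GRHL2, a grainyhead-like factor that maintains epithelial gene expression, was at 120.5, 124, 108 and 119 CPM in PEO-4 and at 0 in all SKOV-3 libraries, at least 2038-fold higher against a floor of 3 counts per library. ESRP1, the epithelial splicing regulator, was at 302 ± 11.8 against 2.48 ± 0.547 CPM. ST14, the protease matriptase, was at 263 ± 37.6 against 0.663 ± 0.155 CPM, with its inhibitor SPINT1 at 97.2 ± 5.27 against 9.2 ± 1.23. RAB25, a GTPase of epithelial recycling, was at 62.3 ± 1.95 CPM in PEO-4 and 0.0192 ± 0.0151 in SKOV-3. AP1M2, a clathrin adaptor of basolateral sorting, was at 109.6, 136, 119.5 and 108 CPM in PEO-4 against 0.0623 ± 0.0176 in SKOV-3. The exceptions were EHF and KLF4, both lower in PEO-4, and KLF5, which did not pass.

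Junction genes followed with smaller differences. CDH1, E-cadherin, was at 151, 139, 130.3 and 151 CPM in PEO-4 and 21.1, 28.4, 27.7 and 21.9 in SKOV-3 (log2 fold change 2.53 ± 0.11 SE, adjusted p = 4.24e-09), so SKOV-3 kept a measurable level. EPCAM, the epithelial adhesion molecule, was at 157 ± 4.26 against 23.5 ± 3.0 CPM, CLDN4 at 381 ± 158 against 20.2 ± 5.63 and EVPL, envoplakin of the cornified envelope, at 89.9 ± 4.58 against 0.39 ± 0.205. TJP3, a scaffold of tight junctions, was 20.4-fold higher and MARVELD3, another tight junction protein, 22.7-fold higher. Of 29 junction genes tested, 21 were higher and 5 lower in PEO-4. Those lower included CLDN1 (25 ± 5.58 against 300.5 ± 25.4 CPM) and DSP, desmoplakin (44.2 ± 0.991 against 226 ± 27.1 CPM), while OCLN, DSG2 and CRB3 did not pass. The letters CAGGTG, an E-box bound by ZEB and SNAI factors, were present in 9 of 19 junction-gene promoters against 19.8% of all promoters, and 3 of those genes were higher in PEO-4, 2 lower, 3 not passed and 1 not tested. The letters AACCNGGTT of grainyhead factors occurred in 37 of all promoters (0.241%) and in 0 of the same 19.

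Keratins, the intermediate filaments of epithelia, went both ways. The simple-epithelial pair KRT8 and KRT18 was higher in PEO-4, KRT8 at 563 ± 129 against 418 ± 83.5 CPM (adjusted p = 0.0389, a call lost when any of 5 single libraries was left out) and KRT18 at 327 ± 68 against 143 ± 22.9, and KRT7 did not differ by the test (447 ± 27.4 against 479.6 ± 189 CPM). KRT19 was 6.15-fold higher in PEO-4. KRT4, a keratin of stratified mucosa, was at 178, 394, 244 and 168 CPM in PEO-4 and at most 0.0186 CPM in SKOV-3, where KRT14, a basal keratin, was at 18.8 ± 13.2 CPM against 0.0574 ± 0.060 in PEO-4. KRT13, the partner of KRT4 in stratified mucosa, was at 9.88 ± 4.54 against 0.00953 ± 0.011 CPM. Of 16 keratins tested, 9 were higher, 3 lower and 4 did not pass. KRT17 was among the lower ones (-1.06 ± 0.43 on the log2 scale, adjusted p = 0.042) but did not pass in most of the other settings tried.

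**Figure D2:**
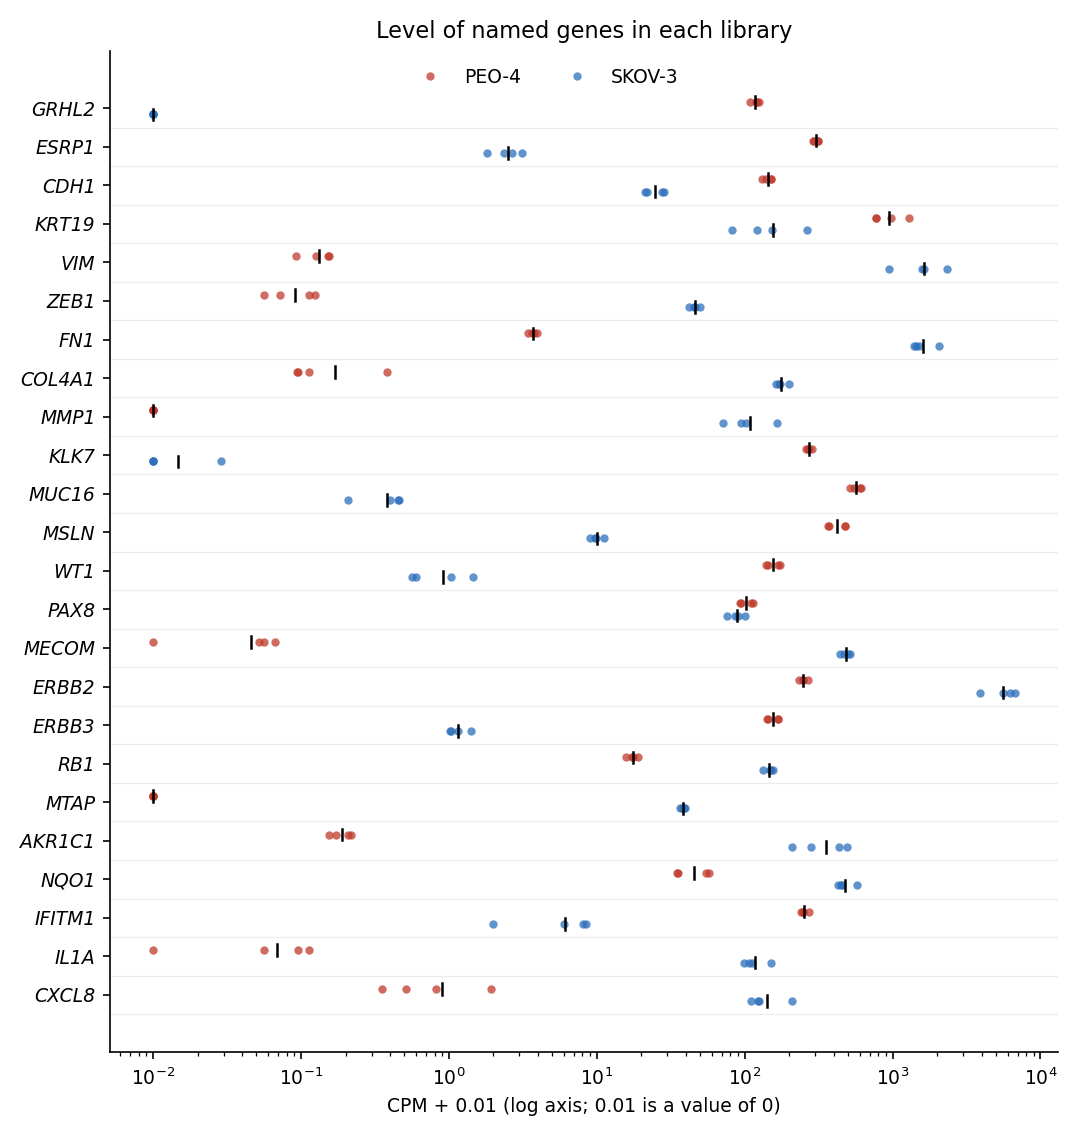
Level of 24 named genes in each of the 4 PEO-4 (red) and 4 SKOV-3 (blue) libraries, as CPM + 0.01 on a log axis, with a black bar at the mean of each line. The lines do not overlap for any gene shown except PAX8, and genes at 0 such as GRHL2 in SKOV-3 and MTAP in PEO-4 sit at the left edge.

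The mesenchymal list was mostly lower. Of 26 members tested, 20 were lower in PEO-4, 18 by at least 2-fold, and the median log2 fold change was -4.68 (-3.82 with the single member at 0 in PEO-4 set to its bound). Without a filter on low counts the median was -2.45 and with DESeq2 -2.66. VIM, the intermediate filament vimentin, was at 0.142, 0.116, 0.0829 and 0.146 CPM in PEO-4 and 2329, 1638, 1569.9 and 943 in SKOV-3 (log2 fold change -13.69 ± 0.40, adjusted p = 1.96e-10). ZEB1, a repressor of E-cadherin, was at 0.0816 ± 0.0325 against 45.9 ± 3.26 CPM, and SNAI2, another, at 0.0394 ± 0.00767 against 11.4 ± 3.38. CDH2, N-cadherin, kept a lower but measurable level in PEO-4, at 2.33 ± 0.813 against 38.1 ± 4.91 CPM. FN1, fibronectin, was at 3.78, 3.91, 3.44 and 3.66 CPM in PEO-4 and 1503, 2059, 1400.5 and 1439 in SKOV-3, 433-fold lower in PEO-4. AXL, a receptor kinase of mesenchymal carcinoma cells, and CD44, the hyaluronan receptor, were 47-fold and 39.9-fold lower. Not every member followed: THY1, a surface glycoprotein of fibroblasts and stem cells, was 68.1-fold higher in PEO-4 (78.8 ± 17.1 against 1.15 ± 0.0976 CPM), MYL9, a myosin light chain, was higher at 19.3 ± 2.84 against 0.436 ± 0.0686 CPM, and SNAI1 was higher at 2.98 ± 0.367 against 0.442 ± 0.257 CPM. SPARC did not pass.

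Matrix genes were mostly lower in PEO-4. Of 27 collagens and laminins tested, 20 were lower and 7 higher. COL4A1 and COL4A2, the paired chains of basement membrane collagen, were at 0.161 ± 0.14 and 0.203 ± 0.116 CPM in PEO-4 and 177 ± 14.8 and 285 ± 30.8 in SKOV-3. The minor chains COL4A5 (9.88 ± 0.885 against 1.72 ± 0.491 CPM) and COL4A6 (0.962 ± 0.295 against 0.00928 ± 0.0107 CPM) went the other way. COL5A1 was 141-fold and COL12A1 43.6-fold lower. LOX, the enzyme that crosslinks collagen, was 48.4-fold lower, and TGFBI, a matrix protein induced by TGF-beta, 93.3-fold lower (60.6-fold without SKOV-3 replicate 1). VCAN, the proteoglycan versican, was at most 0.0622 CPM in any PEO-4 library and 996, 713, 953 and 375 CPM in those of SKOV-3. LAMB3, of an epithelial laminin, was 12.8-fold lower in PEO-4 too, and LAMA5, of another epithelial laminin, was 2.38-fold higher. LAMA1, an embryonic laminin chain, was at 7.03 ± 0.799 against 0.167 ± 0.0687 CPM.

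The kallikrein-related peptidases, secreted serine proteases encoded side by side on 19q, were found in PEO-4. KLK7 was at 259.8, 269, 286 and 271 CPM in PEO-4 and at most 0.0186 CPM in SKOV-3, and KLK5, KLK6, KLK8 and KLK10 lay between 41.2 and 58.6 CPM in PEO-4 with mean levels of no more than 0.0666 CPM in SKOV-3. All 7 kallikrein genes with enough counts were higher in PEO-4, which the filter on low counts favored, and the other 8 were too low to test. MMP1, interstitial collagenase, was at 0 in every PEO-4 library and at 166, 94.3, 102 and 71.5 CPM in SKOV-3, at least 1552-fold lower in PEO-4. MMP2, a gelatinase, was at 1.87 ± 0.417 against 72.7 ± 14 CPM and SERPINE2, a protease inhibitor, at 8.81 ± 1.64 against 268 ± 41.3. MMP14, a membrane-bound protease, was higher in PEO-4 at 6.04 ± 2.09 against 0.112 ± 0.0634 CPM, with TIMP3, a tissue inhibitor, at 338 ± 77.3 against 12.5 ± 3.36 and PLAT, the tissue plasminogen activator, at 188 ± 17.8 against 9.63 ± 2.98. PLAU, the urokinase activator, was lower instead, at 6.67 ± 3.58 against 93.2 ± 23 CPM. Of 23 matrix proteases and inhibitors, 13 were lower and 6 higher in PEO-4.

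HOX genes, whose order along 4 clusters follows the body axis, were changed within clusters. In the HOXB cluster, the 3′ genes HOXB2, HOXB3 and HOXB4 were higher in PEO-4, HOXB3 at 102, 126, 167 and 99.6 CPM against 18.8, 19.7, 18.6 and 17.8 CPM in SKOV-3. From HOXB5 onward the order was reversed. HOXB6 was at 0.577 ± 0.0993 against 89.4 ± 4.92 CPM, HOXB8 at 0.00518 ± 0.0104 against 44.7 ± 1.63, and HOXB9 at 0.0284, 0.0463, 0 and 0.0208 CPM in PEO-4 against 51.8, 58.7, 56.6 and 56.4 in SKOV-3. HOXA13 and HOXD9 were at 0 in PEO-4 and at 13.3 ± 2.21 and 16.2 ± 0.888 CPM in SKOV-3, and HOXC4 at 0 in SKOV-3 and 3.42 ± 0.464 CPM in PEO-4. Of 22 HOX genes tested, 17 were lower and 5 higher in PEO-4, with a median log2 fold change of -6.73, or -5.60 with the 6 members at 0 in a line set to their bound at 3 counts per library and -5.24 with DESeq2.

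Most genes of the steroid receptor list were higher in PEO-4. PGR, the progesterone receptor, was at 61.5, 9.25, 12.3 and 60.4 CPM in PEO-4 against 0.499 ± 0.143 in SKOV-3, and GREB1, an estrogen-induced coactivator, at 488, 195, 206 and 483 CPM against 12.3 ± 2.66. For both genes replicates 1 and 4 of PEO-4 lay far above replicates 2 and 3, and all 4 lay above SKOV-3. IGFBP4, an estrogen-responsive binding protein of insulin-like growth factors, was 40.5-fold higher. Of 18 members tested, 14 were higher and 3 lower, among the latter CA12, a carbonic anhydrase (15.5 ± 3.57 against 131 ± 16.2 CPM), and XBP1, a factor of the unfolded protein response (61 ± 6.05 against 167 ± 17.5 CPM). The letters of the estrogen response element, GGTCA and TGACC with any 3 bases between them, occurred in 7 of all promoters (0.0457%) and 0 of 17 of this list.

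Receptor tyrosine kinases went both ways. ERBB2, the HER2 receptor, was at 249, 270.0, 232 and 248 CPM in PEO-4 and 6727, 6256, 5622 and 3889.8 in SKOV-3, 22.5-fold lower in PEO-4 (log2 fold change -4.49 ± 0.19, adjusted p = 2.48e-09). ERBB3, its usual partner, was at 155 ± 14.7 CPM in PEO-4 and 1.14 ± 0.18 in SKOV-3, and ERBB4 at 411 ± 23 and 33.6 ± 5.81. EGFR was 3.8-fold and EPHB2, an ephrin receptor, 7.11-fold lower in PEO-4, whereas FGFR2 (35.7 ± 2.27 against 3.09 ± 0.615 CPM), DDR1, a collagen receptor (302 ± 29.8 against 45.5 ± 2.22 CPM), and IGF1R (276 ± 45.1 against 79.6 ± 7.03 CPM) were higher. Of 31 receptors tested, 12 were higher, 16 lower and 3 did not pass.

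The neighbors of ERBB2 on 17q12 were mostly lower in PEO-4. MIEN1, which overlaps the end of ERBB2 on the opposite strand, was at 12.8, 17.6, 19.3 and 14.3 CPM in PEO-4. In SKOV-3 it was at 967, 928, 925 and 595 CPM, so it was 53.2-fold lower in PEO-4. How reads in the overlap were assigned was not tested, so the level of MIEN1 is uncertain. PPP1R1B (7.31 ± 2.88 against 265 ± 62.9 CPM), STARD3, a lipid transporter (27 ± 3.02 against 246 ± 9.76 CPM), and PGAP3 (16.5 ± 1.72 against 107 ± 9.7 CPM) were lower too. GRB7, an adaptor of HER2 that lies next after MIEN1, was higher in PEO-4, at 63.7, 61.5, 67 and 67.1 CPM against 47.7, 44.7, 38.6 and 26.6 CPM in SKOV-3 (log2 fold change 0.72, adjusted p = 9.49e-04). GSDMB, a gasdermin farther along the interval, was higher too, at 3.75 ± 1.32 against 1.55 ± 0.309 CPM (log2 fold change 1.28). Of 14 genes of this interval tested, 11 were lower, 2 higher and CDK12 did not pass.

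Below the receptors, 20 of 33 genes of the RAS, RAF and ERK pathway were lower and 8 higher in PEO-4. HRAS (8.64 ± 0.899 against 32.6 ± 0.843 CPM) was lower, as was DUSP4, an ERK phosphatase, at 1.0 ± 0.466 against 61.2 ± 5.16 CPM. NF1, which switches RAS off, was 3.74-fold lower, and SPRY4, a feedback inhibitor, 7.55-fold lower. Early targets did not share a direction: EGR1 was higher at 476, 528, 359.9 and 440.0 CPM in PEO-4 and 72.5, 56.4, 92.8 and 77.6 in SKOV-3, DUSP6 was 2.86-fold higher, and PHLDA1 was 7.31-fold lower. In the PI3K and AKT pathway 10 of 29 genes were higher, 11 lower and 8 did not pass, among them PIK3CA (53.1 ± 3.16 and 52.2 ± 5.09 CPM). FOXO1, a factor restrained by AKT, was 27.9-fold lower in PEO-4. IRS2, the insulin receptor substrate, was 6.88-fold and RPTOR, of the mTORC1 complex, 2.51-fold higher, while AKT1 was 1.92-fold lower.

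**Figure D3:**
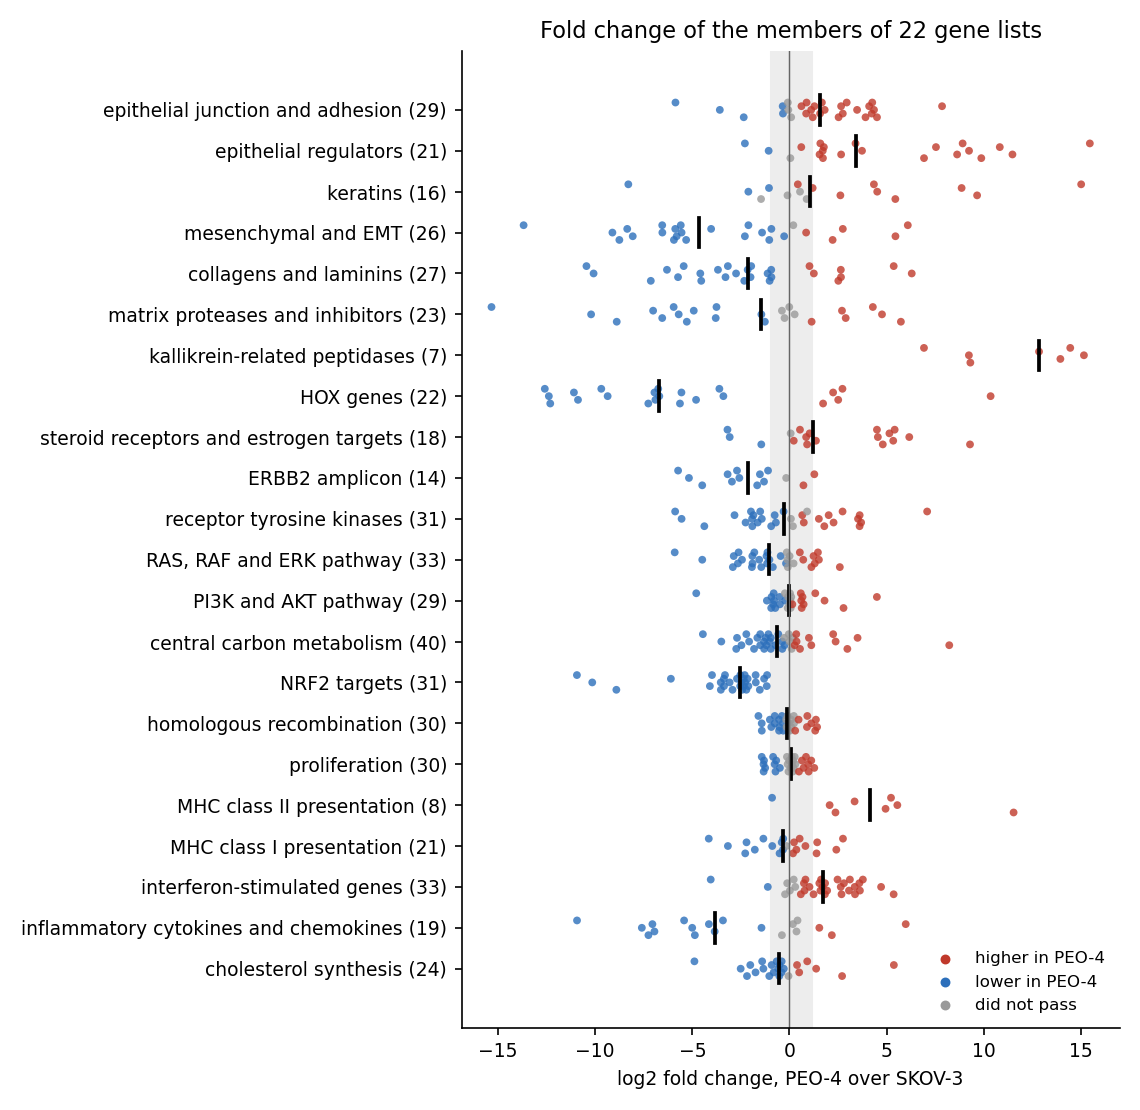
Log2 fold change, PEO-4 over SKOV-3, of each tested member of 22 gene lists (number tested in parentheses), with red for higher, blue for lower, gray for not passed, a black bar at the list median and a gray band over the middle range of all genes, -0.94 to 1.16. All 31 NRF2 targets lie left of 0, and values beyond about 10 belong to genes near 0 in 1 line, whose fitted change is no bound.

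Checkpoint genes went both ways. RB1, the retinoblastoma suppressor, was at 15.8, 17.5, 19.1 and 17.4 CPM in PEO-4 and 149, 150.04, 154 and 132 in SKOV-3, 8.38-fold lower in PEO-4. CDKN2A and CDKN2B, which encode the p16 and p15 inhibitors, were at 0 in all 8 libraries. MYC was at 484 ± 59.4 CPM in PEO-4 and 102 ± 23.7 in SKOV-3, CDK6 was 2.85-fold higher in PEO-4, and CCNE1, cyclin E, was 2.67-fold lower. CCND3, cyclin D3, was 4.02-fold higher, CDKN1C, the p57 inhibitor, 6.88-fold lower and E2F1 2.68-fold lower. The G1 list had 7 of 26 genes higher and 10 lower. BTG2, an antiproliferative gene, was 34.7-fold higher in PEO-4 and FDXR, ferredoxin reductase, 10.2-fold higher, while GDF15, a stress cytokine, was 20.2-fold lower and CDKN1A, p21, was at 7.8 ± 4.66 against 18.6 ± 2.21 CPM. MDM2 did not pass, at 94 ± 5.88 and 94.1 ± 8.27 CPM. Proliferation genes were close to balance, with 8 of 30 higher, 10 lower, 12 not passed and a median of 0.08, and MKI67 was at 17.9 ± 4.74 against 29.5 ± 7.1 CPM.

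Homologous recombination genes were split, with 8 of 30 higher, 13 lower and 9 not passed, and RAD51C was 3.03-fold lower in PEO-4 while BRIP1, a helicase that partners BRCA1, was 2.57-fold higher. In the list of platinum transport and resistance genes, 11 of 24 tested members were higher and 11 lower. SLC22A2 and SLC22A3, organic cation transporters, were at 0.0129 ± 0.015 and 0.201 ± 0.117 CPM in PEO-4 and 20.3 ± 7.4 and 51.7 ± 9.84 in SKOV-3. MT1E, a metallothionein, was at 44.2, 59.5, 71.3 and 46.7 CPM in PEO-4 and 0.0535 ± 0.0202 CPM in SKOV-3. MT2A was higher too, at 87.4 ± 23.7 against 24.9 ± 8.53 CPM, though reads of these near-identical genes could have been divided between them. SLFN11, a restrictor of replication under damage by platinum, was 5.41-fold lower in PEO-4.

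All 31 NRF2 targets tested were lower in PEO-4, each by at least 2-fold, against 23.7% of all genes, with a median log2 fold change of -2.53. The summed level of the list was 1973 to 2101 CPM in PEO-4 against 11680.0 to 13798 CPM. NQO1, a quinone reductase, was at 34.9, 57.3, 54.9 and 35.7 CPM in PEO-4 and 425, 571, 447 and 457 in SKOV-3. SLC7A11, the cystine transporter, was 15.9-fold lower and GCLM, of glutathione synthesis, 4.45-fold lower. FTH1, ferritin heavy chain, was at 804 ± 62.5 against 5233 ± 918 CPM. The pentose phosphate enzymes TALDO1 (38.6 ± 4.34 against 327 ± 47.3 CPM) and TKT (144 ± 7.32 against 624 ± 61.9 CPM) belonged to the same group. AKR1C1 was at 0.178 ± 0.0294 against 354 ± 132 CPM, and reads shared with AKR1C2 and AKR1C3 were divided by estimate. Of the 7 members whose promoters held the antioxidant letters, 6 were lower and GPX2 was too low to test. Since all 31 tested targets were lower, this count was fixed in advance and says nothing about the letters.

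Central carbon metabolism was lower in 24 and higher in 11 of 40 genes in PEO-4. HIF1A, the hypoxia factor, was at 136, 131, 125 and 138 CPM in PEO-4 and 888, 899.6, 929 and 732 in SKOV-3. LDHA, lactate dehydrogenase, was 4.23-fold lower and LDHB 2.0-fold higher. SLC7A5, an amino acid transporter, was 6.69-fold lower, whereas HK2, hexokinase (116 ± 4.27 against 22.5 ± 2.25 CPM), and PFKM, phosphofructokinase (81.7 ± 3.54 against 7.2 ± 0.218 CPM), were higher. SLC2A3, a glucose transporter, was at 9.42 ± 3.76 CPM in PEO-4 and 0.0298 ± 0.0264 in SKOV-3, and SLC2A1, the main one, 2.12-fold lower. The medium of PEO-4 alone was given added glutamine, and its part in these values cannot be told apart from the line.

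Among drug-metabolizing enzymes, UGT1A6, a glucuronosyltransferase, was at 0 in PEO-4 and 101, 110.5, 69.4 and 68.5 CPM in SKOV-3, at least 1250.1-fold lower, and since the UGT1A genes share exons their separate levels are uncertain. CYP1B1 was 16.5-fold lower in PEO-4. ALDH3B2, an aldehyde dehydrogenase, was at 45.3 ± 6.85 CPM in PEO-4 and 0.00462 ± 0.00924 in SKOV-3, and CYP4F3 at 45.4 ± 10.3 against 0.25 ± 0.121. Of 23 such enzymes 9 were higher and 13 lower. Of 25 ABC transporters 6 were higher and 15 lower, with ABCA1, the cholesterol exporter, 21.5-fold lower in PEO-4, ABCC1 and ABCC3, exporters of drug conjugates, 2.22-fold and 3.33-fold lower, and ABCC5 2.03-fold higher. ABCB1, P-glycoprotein, was too low to test.

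Most interferon-stimulated genes were higher in PEO-4. Of 33 tested, 26 were higher, 22 by at least 2-fold, and 2 were lower, and the summed level was 1704 to 2857 CPM against 587 to 825 CPM. IFITM1, a membrane restriction factor, was at 248, 249.9, 271 and 242 CPM in PEO-4 and 8.48, 8.07, 5.99 and 1.98 in SKOV-3. MX1, a GTPase against viruses, was at 224 ± 102 against 18.1 ± 6.92 CPM, IFIT1, an RNA-binding factor, at 37.9 ± 22 against 3.66 ± 1.43, and ISG15, a ubiquitin-like protein, at 76.6 ± 40.1 against 13.8 ± 3.0. IFI44L, with the repeated site printed above, was 26.3-fold higher, and OASL, an antiviral synthetase-like protein, 13.7-fold higher. In PEO-4, IFI44L was at 17.9, 44.2, 38.5 and 17.3 CPM and OASL at 4.07, 10.3, 5.22 and 3.85. For both, replicates 2 and 3 lay above replicates 1 and 4, and all 4 lay above SKOV-3. HERC5, the ligase that attaches ISG15, was the reverse at 2.56, 4.05, 2.59 and 2.93 CPM in PEO-4 and 54.1, 52.7, 51.5 and 43.6 in SKOV-3, although its promoter held the same letters, and IFI35 was lower too. BST2 and ISG20, with the letters as well, did not pass. Of the 17 members with the letters, 14 were higher, 1 lower and 2 did not pass. The whole list had a similar share higher, 26 of 33, so this count does not tie the letters to the direction.

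Antigen presentation was not uniform. HLA-C was 6.74-fold higher in PEO-4, while HLA-B did not pass, and since reads of these polymorphic genes were mapped to a single reference, their levels are uncertain. B2M, the shared light chain, was at 248, 343, 374 and 257 CPM in PEO-4 and 1317, 1416, 1361 and 1577 in SKOV-3, and NLRC5, the activator of class I genes, was 9.0-fold lower. TAPBPL, a peptide editor, was 5.32-fold higher. Of 21 class I genes tested, 9 were higher and 11 lower. In class II, 7 of 8 tested genes were higher, against 41.6% of all genes, and 5 further members were not tested. The largest change was that of HLA-DRA, at 7.76 ± 1.31 CPM against 0. Such a gene passes the filter on low counts only through PEO-4, which favored this direction. CD74, the invariant chain, was at 15.5 ± 3.79 against 1.51 ± 0.343 CPM and CIITA, the class II activator, at 12.7 ± 2.74 against 3.03 ± 0.17 CPM.

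Inflammatory cytokines and chemokines were lower in PEO-4 for 12 and higher for 3 of 19 genes tested, with a median log2 fold change of -3.85. IL1A, interleukin 1 alpha, was at 0.0853, 0.0463, 0.104 and 0 CPM in PEO-4 and 113, 107, 99.7 and 149.8 in SKOV-3. CXCL8, interleukin 8, was at 0.894 ± 0.715 against 142 ± 45.5 CPM and CXCL1 at 0.82 ± 0.745 against 114 ± 18.7, both attractants of neutrophils. CSF1, a macrophage growth factor, was 32.2-fold lower, IL6 was at 0.0639 ± 0.0489 against 8.13 ± 1.77 CPM and IL1B at 0.0304 ± 0.0177 against 6.07 ± 1.18. LIF and TSLP did not pass, and CXCL16 was higher at 16.8 ± 0.687 against 5.78 ± 0.26 CPM.

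Of 32 Wnt genes tested, 16 were higher and 14 lower in PEO-4. LGR6, a receptor of R-spondins, was at 77.6 ± 12.9 CPM in PEO-4 and 0.948 ± 0.195 in SKOV-3, and AXIN2, a feedback target, was 7.3-fold higher. The ligand WNT7A was at 0.887 ± 0.122 against 67 ± 17.3 CPM and the inhibitor SFRP1 was 31-fold lower. RNF43, a ligase that removes Wnt receptors, was at 5.3 ± 1.08 CPM in PEO-4 and 0.00924 ± 0.0185 in SKOV-3. In the TGF-beta and BMP pathway 17 of 29 genes were lower and 7 higher, with BMP7, a ligand, at 89.2, 153, 152 and 88.4 CPM in PEO-4 and 0.0932, 0.148, 0.143 and 0.118 in SKOV-3. ID2 was 8.06-fold higher and ID1 6.94-fold lower, both of them known targets of BMP signals. ID1 was at 18.9, 77, 27 and 19.1 CPM in PEO-4, and without replicate 2 it was 11.3-fold lower. BMP2, a further ligand, was 27.4-fold lower and TGFBR2, the TGF-beta receptor, 3.16-fold lower. NOTCH3, of a neighboring pathway, was named after its values were seen and was at 84.8 ± 10.01 against 1.12 ± 0.428 CPM. Of 13 S100 genes 9 were lower, S100A4 at 3.67 ± 2.06 against 208 ± 77 CPM, and S100A14 was higher at 48.5 ± 13.3 against 1.16 ± 0.148.

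In further lists, the BCL2 family had 7 members higher and 7 lower of 18, and MCL1 was at 462 ± 67.2 and 455 ± 28.1 CPM without passing. BID, a death agonist, was 2.81-fold higher and BMF 6.71-fold lower. Of 24 cholesterol synthesis genes 17 were lower and 6 higher, where 39.9% of all genes were lower and 41.6% higher. Among the 6 was EBP, the sterol isomerase, at 17.4, 19.96, 20.8 and 16.7 CPM against 0.41, 0.24, 0.693 and 0.472 CPM in SKOV-3. Of 24 SWI/SNF subunits 12 were higher and 10 lower, and SMARCC1, a core subunit, was 12.2-fold higher in PEO-4 (62.9 ± 4.2 against 5.14 ± 0.662 CPM) while SMARCB1 was 2.45-fold lower. Cancer-testis antigens were largely silent, with 27 of 30 too low to test. PRAME was at 0.0233 ± 0.00362 CPM in PEO-4 and 17.9 ± 0.851 in SKOV-3, and SSX1 at 1.81 ± 1.17 CPM in PEO-4 and 0 in SKOV-3.

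Markers of other cell types were counted as well. Of 10 fibroblast markers 8 were tested and 4 were higher and 4 lower, and the collagen COL1A1 was at 0.721 ± 0.42 against 17.6 ± 9.78 CPM. Of 10 endothelial markers 6 were tested and 3 were higher and 3 lower, all under 4 CPM. Of 10 mesothelial markers 6 were tested, 4 higher and 1 lower: WT1 and MSLN, given above, BNC1, basonuclin (81.6 ± 2.96 against 3.32 ± 0.886 CPM), and UPK3B (37.9 ± 7.71 against 2.8 ± 1.14 CPM) were higher, and CALB2, calretinin, was near 0 in both lines. The summed level of the mesothelial markers was 663 to 809.9 CPM in PEO-4 but 16.2 to 50.8 CPM in SKOV-3. WT1 and MSLN are also serous carcinoma genes. What part other cells had in the results was not tested.

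Per length of transcript, the 8 most abundant genes at least 2-fold higher in PEO-4 by mean TPM were all ribosomal protein genes. RPS29 was at 1941 ± 349 TPM in PEO-4 and 548 ± 89.9 in SKOV-3, and RPL30 at 1729.5 ± 243 against 402 ± 44. A count over the family, made after these values were seen, gave 63 of 79 cytosolic ribosomal protein genes higher, 4 lower and 12 not passed, with a median log2 fold change of 0.92 that was between 0.84 and 1.06 in all 9 fits compared. Their summed level was 37063 to 50515 TPM in PEO-4 and 22901 to 29431 TPM in SKOV-3. The most abundant genes lower in PEO-4 were FTH1, S100A6, the histones H4C12 and H4C11, TMSB10, B2M, TMSB4X and ENO1. TMSB4X, the actin-sequestering thymosin beta 4, was at 48.3 ± 18.9 against 649 ± 159 TPM, and ENO1, the glycolytic enolase, at 211 ± 37.2 against 597 ± 37.8 TPM. The histone copies share reads and are uncertain.

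Long noncoding RNAs and protein-coding genes were split differently between the lines, which was not tested. Of 3037 tested, 45.8% were at least 2-fold higher and 17.6% lower, with a median log2 fold change of 0.82, whereas of 14629 protein-coding genes 22% were higher and 25.9% lower, with a median of -0.11. Pseudogenes (1038 tested) had 40.9% higher and 15.9% lower. The noncoding, mitochondrial and ribosomal RNA shares of the libraries, given above, moved with the line, and their part in this was not tested. EMX2OS, the antisense transcript of EMX2, was at 164 ± 8.83 CPM in PEO-4 and 0.059 ± 0.038 in SKOV-3. UCA1 (48.2 ± 8.51 against 0.705 ± 0.403 CPM) and PVT1, beside MYC (79.2 ± 2.2 against 5.98 ± 0.306 CPM), were higher as well. LINC00667 was at 0 in SKOV-3 and 28.8 ± 1.29 CPM in PEO-4, LINC02975 at 21.7 ± 0.704 CPM in PEO-4, and LINC02582 at 61.8 ± 13.3 CPM in SKOV-3, with values near 0 in the opposite line. Of 20 cancer-associated long noncoding RNAs tested, 12 were higher and 7 lower.

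Complete absence from a single line was rarer than a difference. At a level of at least 10 CPM in the other line, 17 protein-coding genes were at 0 in all 4 PEO-4 libraries and 29 in all 4 SKOV-3 libraries, and for 7 and 12 of them both flanking tested genes were at 1 CPM or more in the same line. In PEO-4, DNAJC15, a mitochondrial cochaperone, was at 0 against 79.4, 81.6, 85.7 and 83.3 CPM in SKOV-3. GASK1B, a Golgi-associated protein, was at 0 against 32.5 ± 15.7 CPM, and CDH13, T-cadherin, at 0 against 18.6 ± 1.44. MSR1, a scavenger receptor, was at 0 against 43.8 ± 4.34 CPM while the preceding gene TUSC3 was at 114 ± 5.19 and 104 ± 3.08 CPM. SALL1, a developmental factor, was at 0 against 25.6 ± 3.71 CPM between CYLD and HNRNPA1L3, which were both expressed in PEO-4. In SKOV-3, TBX18, a T-box factor, was at 0 against 57, 64.7, 68.2 and 58.9 CPM in PEO-4, and SOX11, a neural and progenitor factor, at 0 against 32 ± 3.74 CPM. MAB21L4, an epidermal differentiation gene, was at 0 against 40.6 ± 9.62 CPM, SLC12A1, a cotransporter of the kidney, at 0 against 21.6 ± 7.47, and ST6GALNAC5, a sialyltransferase, at 0 against 33 ± 7.31. PNMA8A and its neighbor CCDC8 were both at 0 in SKOV-3, against 34.6 ± 2.39 and 24.7 ± 4.66 CPM. ANKFY1, an endosomal protein on 17p, was at 0 against 54.1, 59.98, 56.1 and 57.1 CPM, with CYB5D2 beside it at 0 as well against 5.23 ± 0.271 CPM and UBE2G1 on its other side at 28.9 ± 0.445 in PEO-4 and 4.73 ± 0.548 CPM in SKOV-3. OBP2B (48 ± 8.17 CPM against 0) is nearly identical to OBP2A and is uncertain. LHX1, CDH13, SOX11, SLC12A1 and the neighboring genes were named after their values were seen.

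Runs of at least 3 protein-coding genes in a row, with means below 0.1 CPM in 1 line and at least 1 CPM in the other, numbered 7. Genes below 1 CPM in both lines were passed over, so the members of a run need not be immediate neighbors. On chr9:20999509-21937651 (GRCh38), HACD4, KLHL9 and MTAP were at 0 in all PEO-4 libraries, and MTAP, an enzyme of methionine salvage, was at 37.6, 39, 36.4 and 39.8 CPM in SKOV-3. The noncoding MIR31HG was at 0 in PEO-4 too, against a mean of 18.9 CPM in SKOV-3. The interferon genes between them were at 0 in PEO-4 and at means of at most 0.16 CPM in SKOV-3, so they do not set the lines apart. FOCAD, before the run, was at 6.37 ± 0.67 CPM in PEO-4 and 29.3 ± 2.05 in SKOV-3, and TUSC1, after it, was slightly higher in PEO-4, at 15.6 ± 1.34 against 12.1 ± 1.11. On chr11:102770502-102955732, MMP10, MMP1 and MMP13 were at 0 in PEO-4, with MMP7 before them at 0.317 ± 0.286 against 17.2 ± 13.2 CPM and DCUN1D5 after them at 38.2 ± 2.73 against 48.6 ± 3.13. On chr17:48611377-48728750, the run held HOXB8, HOXB9 and HOXB13. The 4 runs silent in SKOV-3 were the kallikreins KLK5 to KLK11 on chr19:50943303-51028039, PKP1 to TNNI1 on chr1:201283452-201429866, GIMAP2 to ATG9B on chr7:150685697-151024499, and HRNR, FLG and S100A9 on chr1:152212076-153361023, the last a group of the epidermal barrier.

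**Figure D4:**
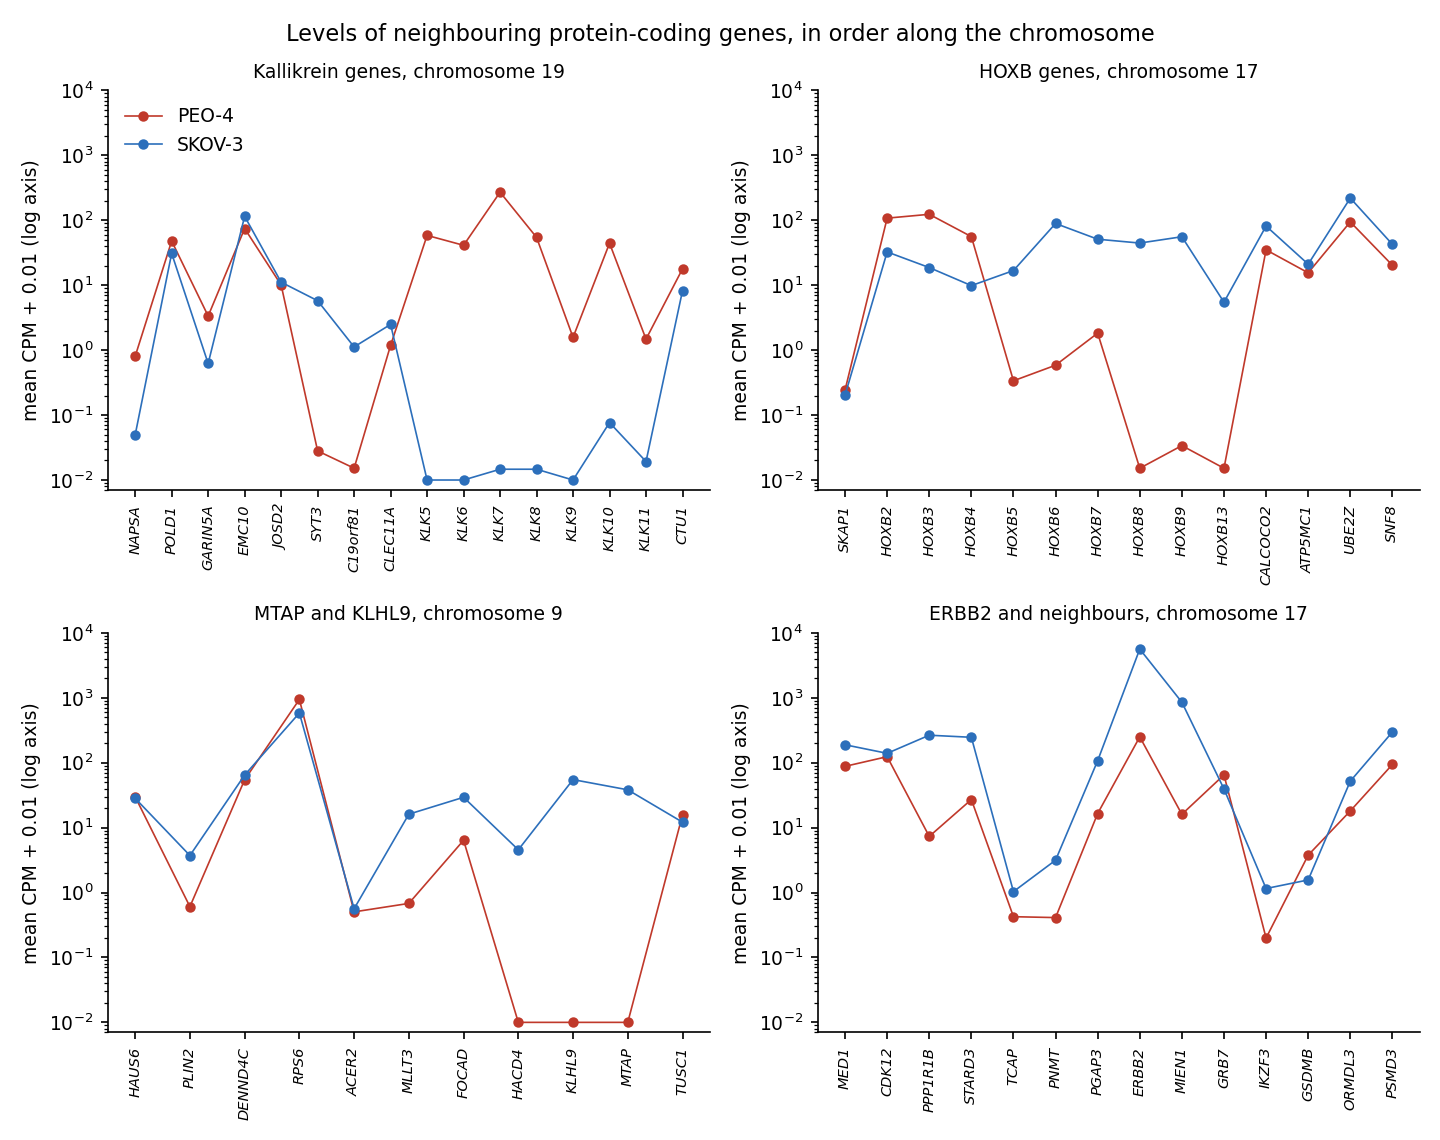
Mean level in PEO-4 (red) and SKOV-3 (blue) of tested protein-coding genes in order along the chromosome, as CPM + 0.01 on a log axis, in 4 intervals. The kallikreins drop to the floor in SKOV-3, HOXB5 to HOXB13 and the MTAP interval drop in PEO-4, and ERBB2 and MIEN1 peak in SKOV-3 while GRB7 does not.

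Chromosomes differed in their share of genes on each side. On chromosome 13, which carries RB1, BRCA2 and DNAJC15, 54.8% of 239 protein-coding genes were lower in PEO-4 by at least 2-fold and 9.62% higher, with a median of -1.12, against 25.9% and 22% over all protein-coding genes. Chromosomes 22 (48.7% lower), 4 (42.9%) and 9 (41.6%) followed. Chromosome 8 had 34.7% higher and 18.0% lower, and chromosome 7 had 32.8% higher and 15.8% lower. In windows of 15 neighboring genes, the highest median outside the kallikreins that had all members above 0 was 2.81, on chromosome 8 from PTK2 to LY6E. The intervals chr19:281040-764318, chr6:158972871-165988117 and chr16:67438014-67884499 had medians of -2.56, -2.50 and -2.25 with all 15 genes below 0. The chromosome 6 window held IGF2R, the receptor that clears insulin-like growth factor 2, at 116 ± 12.3 against 653 ± 85 CPM, together with SLC22A2 and SLC22A3. Copy number was not measured, so dosage and regulation cannot be told apart.

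**Figure D5:**
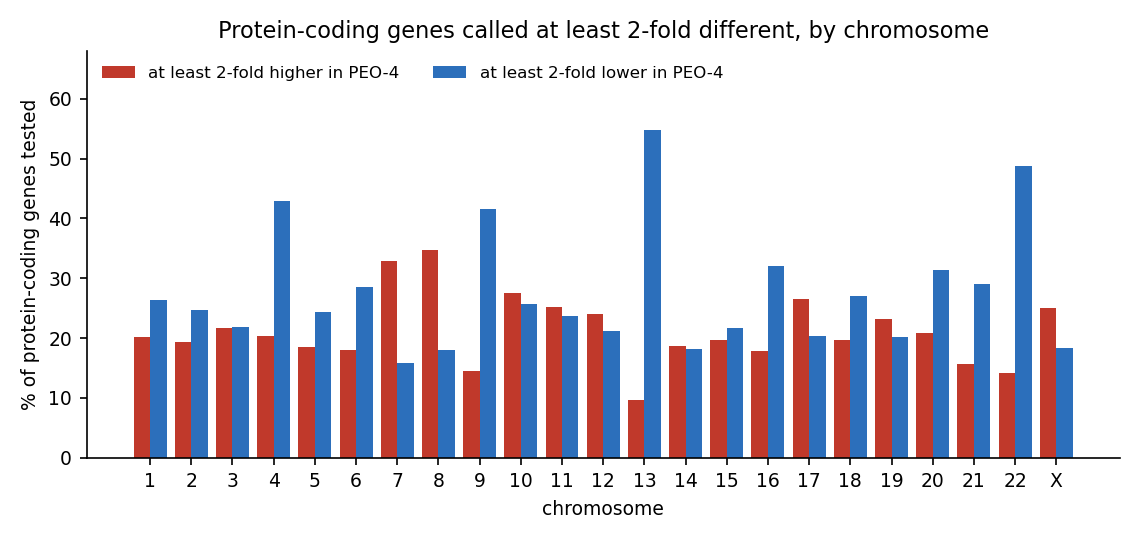
Share of tested protein-coding genes on each chromosome that were at least 2-fold higher (red) or lower (blue) in PEO-4, in percent. Chromosome 13 stands at 54.8% lower and 9.62% higher, and chromosomes 7 and 8 have more genes higher than lower.

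Transcript choice was compared among 1973 genes that had at least 5 TPM and a transcript holding at least 50% of the gene in all libraries of each line. In 15 of them the leading transcript differed, and in 14 both transcripts were protein-coding. For RPS24, a ribosomal protein with alternative last exons, RPS24-201 made up 61.8 to 67.8% of the gene in PEO-4 but 0.899 to 1.57% in SKOV-3, where RPS24-202 made up 69.2 to 76.7%. For ATP5F1C, of mitochondrial ATP synthase, ATP5F1C-202 held 86.0 to 90.5% in PEO-4 but 23.6 to 37.8% in SKOV-3. COL18A1, the precursor of endostatin, was led by COL18A1-202 in PEO-4 (50.2 to 55.5%, against 0.105 to 0.373% in SKOV-3) and by COL18A1-207 in SKOV-3 (86.2 to 90.8%). PLOD2, a collagen lysyl hydroxylase, was led by PLOD2-202 at 57.9 to 59.9% in PEO-4 and by PLOD2-201 at 80.1 to 83.7% in SKOV-3. MYL6, TPM2 and MRPS12 changed their leader as well, and so did KEAP1, the inhibitor of NRF2, with KEAP1-201 at 65.8 to 68% in PEO-4 against 31.0 to 37.1% in SKOV-3. These shares are RSEM estimates that divide reads shared by transcripts.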

How the data were processed

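Total RNA of PEO-4 and SKOV-3 was sequenced in 4 paired-end libraries each, as strand-specific reads on a NovaSeq6000. The authors demultiplexed with bcl2fastq 2.20.0.422, trimmed with Trimmomatic 0.39, aligned with STAR 2.7.3a and quantified with RSEM 1.3.1 on hg38 with Gencode 39, and deposited 1 table of transcripts per library. Its expected counts, estimates made by the authors' RSEM run that divide shared reads, are not normalized. Its TPM values, deposited beside them, are scaled to effective length, which the authors' tables also hold and which served the length-scaled alternative.

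Expected counts were summed by gene identifier, rounded and tested with the edgeR 4.0.16 quasi-likelihood test (R 4.3.3, limma 3.58.1) on the 8 libraries, after edgeR's filter on low counts and with TMM factors. Adjusted p is by Benjamini-Hochberg with a threshold of 0.05, and changes are log2 fold changes of PEO-4 over SKOV-3 with their SE, computed here from the deposited counts. CPM is the count per 1000000 at the TMM-scaled library size, and ± marks the SD over 4 libraries. Alternatives included DESeq2 1.42.0, limma-trend, other scalings and filters, and the replicate number as a block. Of 61533 gene identifiers, 61369 were found in GENCODE 44, which gave symbols and types, and 164 were not. The test was checked on simulated counts in which few genes changed, in equal numbers up and down. In these data 81.5% of the genes tested differed, so that check does not cover the scaling used here. Replicates differed by more than sampling noise, with a chi-square of 25.7 to 110.5 times its degrees of freedom, so none was counted as a duplicate.

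The comparison, the 40 gene lists and the rules for naming genes were chosen with earlier results of these data known. Named were the 12 protein-coding and 5 long noncoding genes of largest change in each direction, the 8 most abundant by TPM, up to 3 members of each list per direction, members needed to describe a role, genes of silent runs and windows, and the 6 most abundant genes with another leading transcript. KEAP1 and PLOD2 were given beside this last group. XIST, TSIX and Y-linked genes were left out, and some further genes are not reported here. Promoters were taken from RefSeq (GRCh38.p14), and 58 of 58 printed or counted motif sites had the same bases in hg38.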

Additional observations from a re-analysis of the deposited data

Results flagged for a closer look

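In each line, a gene's lowest and highest library were compared with the rest of its group of 4, and a library was singled out where its gap to the nearest other library took up nearly all of the group's range. Of 468 such groups, from the 234 genes given with values in the report, 34 held a library that stood apart. Chance gives about 1 in 20 for continuous values, but a library that alone is above 0 stands apart by construction. Such cases are among the 34, so this rate cannot show whether 34 is more than chance. PEO-4 replicate 2 was named 10 times, PEO-4 replicate 3 7 times and SKOV-3 replicate 3 0 times. Values are in CPM with the range of the other 3 libraries.

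PEO-4 replicate 1 lay above the other libraries of its line for IL1B at 0.0569 (0.0207 to 0.0231). PEO-4 replicate 1 alone was above 0 for LINC02582 at 0.0284 and ZIC2 at 0.0284. PEO-4 replicate 2 lay above the other libraries of its line for COL4A1 at 0.37 (0.0833 to 0.104), DDR1 at 347 (286 to 289), ID1 at 77 (18.9 to 27), ISG15 at 136 (52.9 to 64.1) and UPK3B at 49.5 (33.7 to 34.6). PEO-4 replicate 2 lay below the other libraries of its line for ABCA1 at 6.75 (9.49 to 9.97), CD44 at 5.71 (8.95 to 9.01), PFKM at 76.4 (83 to 83.9), PLAT at 162 (193 to 199) and RPS29 at 536 (686 to 698). PEO-4 replicate 3 lay above the other libraries of its line for BMP2 at 0.559 (0.37 to 0.398), DUSP4 at 1.7 (0.708 to 0.81), ESR1 at 244 (208 to 212), MMP7 at 0.746 (0.167 to 0.185) and PPP1R1B at 11.6 (5.31 to 6.22). PEO-4 replicate 3 lay below the other libraries of its line for KRT7 at 406 (459 to 462). PEO-4 replicate 3 alone was above 0 for HOXB8 at 0.0207. PEO-4 replicate 4 lay above the other libraries of its line for LAMA1 at 8.22 (6.55 to 6.74). SKOV-3 replicate 1 lay above the other libraries of its line for CDKN1C at 14.3 (11.2 to 11.7). SKOV-3 replicate 1 lay below the other libraries of its line for HOXB6 at 82.1 (91 to 92.4). SKOV-3 replicate 1 alone was above 0 for KLK7 at 0.0186, KRT4 at 0.0186 and SEMA5A at 0.0186. SKOV-3 replicate 2 lay above the other libraries of its line for FN1 at 2059 (1400.5 to 1503) and FOCAD at 32.4 (28.2 to 28.3). SKOV-3 replicate 2 alone was above 0 for ALDH3B2 at 0.0185 and RNF43 at 0.0369. SKOV-3 replicate 4 lay above the other libraries of its line for CXCL8 at 209.7 (111 to 125) and GDF15 at 217 (133 to 147). SKOV-3 replicate 4 lay below the other libraries of its line for MIEN1 at 595 (925 to 967). SKOV-3 replicate 4 alone was above 0 for LINC02975 at 0.0197.

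None of these values changed the side of the test of its gene, since each gene's call stayed the same when the library was left out.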

How the results depend on the processing

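A total of 8984 values were recomputed. Genes and lists were recomputed under 19 settings, which were other scalings, filters and tools, a stricter threshold, length-scaled TPM, a replicate block, a fit with T1074 and each library left out, and windows, runs and transcript shares under 6 further limits. None of the 390 named genes reversed a called direction. Over all called genes, length-scaled TPM gave the opposite sign for 83 of 15389, 13 of them past the threshold, and the other fits for 0. The counts of genes higher, lower and at least 2-fold higher or lower stayed within 1.5 times of those given. Leaving out a library gave 7822 to 8161 genes higher and 7529 to 7721 lower. Of 390 named genes, ATP5F1C, BOK, CYLD, KRT17, KRT8, MYL6 and PLOD2 lost their call in at least 1 setting, and CDK12, FOLR1, HLA-B, PAX8 and TUSC3 gained one. PAX8 passed without PEO-4 replicate 1, PEO-4 replicate 4 or SKOV-3 replicate 1 (log2 fold changes 0.26, 0.26 and 0.26), FOLR1 without SKOV-3 replicate 1 (0.44), and HLA-B and TUSC3 without PEO-4 replicate 2 (-0.22 and 0.16). KRT17 kept its call only without PEO-4 replicate 2 or SKOV-3 replicate 4 and was between -1.13 and -0.73 without each of the other libraries. KRT8 lost its call without PEO-4 replicates 2 or 3 or SKOV-3 replicates 2, 3 or 4 (0.26 to 0.46), MYL6 without PEO-4 replicates 1, 2 or 4 or SKOV-3 replicates 3 or 4 (-0.30 to -0.22) and BOK without PEO-4 replicate 2 or SKOV-3 replicates 3 or 4 (0.19 to 0.23). Without PEO-4 replicate 3 the log2 fold changes of CXCL8, CXCL1 and MMP7 were -7.98, -7.92 and -6.61 in place of -7.26, -7.06 and -5.70, without SKOV-3 replicate 1 that of MMP7 was -5.05, and without PEO-4 replicate 2 those of KRT14 and COL4A1 were -9.15 and -10.88 in place of -8.30 and -10.08. The median of the cytokine list was between -4.85 and -3.44. The fits without a low-count filter and with DESeq2 had 11 kallikrein genes higher. The BCL2 family had 4 members higher in both of these fits, with T1074, at an adjusted p of 0.01 and without SKOV-3 replicate 3. With protein-coding genes alone, 11 G1 genes were higher and the median of protein-coding genes was 0.02 in place of -0.11. With at least 1 CPM required, 5 ovarian antigens and 1 cytokine were higher, and with T1074 in the fit 5 class I genes. The causes were not tested. The medians of the lists of ovarian antigens, receptor kinases, PI3K, platinum, recombination, G1, BCL2, noncoding RNA, cancer-testis, leukocyte, endothelial and fibroblast genes were among those that changed sign in some setting.

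Windows of 9 genes had a highest median of 9.31 and a lowest of -6.70, the latter on chromosome 2, and windows of 25 genes had 2.55, on chromosome 8, and -2.30, on chromosome 6. A limit of 0.2 CPM gave 11 silent runs in place of 7. A required share of 40% gave 92 genes with another leading transcript, and 60% gave 2, in place of 15.

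Replicate numbers were shared by the lines. The deviations of same-numbered libraries correlated at -0.02, -0.03, 0.07 and 0.03, so they shared no strong deviation. Whether same-numbered libraries were prepared together cannot be told from these values. With the replicate number as a block, 7835 genes were higher and 7495 lower, 5251 and 4537 of them by at least 2-fold.

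Depth limited the weakest genes: 3 counts in a library correspond to about 0.0698 CPM in PEO-4 and 0.0579 CPM in SKOV-3, and folds of genes at 0 are bounds against that floor. Such bounds cover counting error only.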
